A study of Mus musculus with 12 samples.

Results

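The comparison described here sets the liver of male ICR mice given small interfering RNA (siRNA) against G0s2 beside the liver of mice given a control siRNA, 2 days after treatment. It holds 2 of the 12 arrays of the series, chosen by their labels, with 1 array per group. Both siRNAs were injected into a vein at 1.6 nmol with a lipid carrier, in mice of 5 weeks, and the labels describe the control siRNA as scrambled. The protocol places the injection on the day before diethylnitrosamine (DEN, a DNA-alkylating liver carcinogen), whereas the labels of these arrays name only the siRNA, so whether the mice drank DEN is not stated. The number of animals behind each array is not stated either. The other 4 arrays of day 2 are vehicle (water), all-trans retinoic acid (ATRA, 30 mg/L of drinking water), DEN (80 mg/L) and ATRA+DEN. The 2 siRNA arrays lie on one slide and those 4 on another, so slide and siRNA injection cannot be told apart when the 2 sets are compared. With 1 array per group no test of a difference is possible, and what follows gives levels, differences and counts of genes at least 2-fold apart.

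G0s2 is a small protein that binds and inhibits adipose triglyceride lipase, the enzyme encoded by Pnpla2 that releases the first fatty acid from stored triglyceride. Abhd5 activates the same lipase, and perilipins coat the lipid droplet on which it acts. In liver, G0s2 is known as a target of lipid-sensing nuclear receptors and as a factor that favours triglyceride storage. Lowering its transcript with siRNA is a way to ask what the liver expresses when that brake is weaker.

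A level is the log2 processed intensity of a probe minus the 75th percentile of its array, so 0 is that percentile. A difference is the level in the G0s2 siRNA array minus the level in the control siRNA array. The control siRNA array had 27393 and the G0s2 siRNA array 26543 of 55681 probes well above background. Keeping probes above background on both left 25583 probes and 19098 of 34741 genes, each gene represented by its brightest such probe. Repeat spots of 1 probe varied with an SD of 0.11 in the control siRNA and 0.13 in the G0s2 siRNA array, which gives an SD of 0.17 for a difference between single spots. This is scanner and spot error only, and the spread between animals was not measured. The labelled tissue was borne out by its markers. Albumin (Alb) stood at 11.01 and 11.09 and transthyretin (Ttr) at 9.89 and 9.97 in the control and G0s2 siRNA arrays, while Adipoq of fat, Cela2a of pancreas and Acta1 of muscle were not well above background on either.

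The targeted gene was measured by a single 60-base probe on chromosome 1 (mm9 chr1:195098925-195098984, minus strand), whose sequence is shown because every G0s2 value rests on it.
G0s2 probe: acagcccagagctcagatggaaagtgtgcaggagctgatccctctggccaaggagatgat
The siRNA sequences are not in the labels, so the place of their target relative to this probe was not analysed here. G0s2 stood at 3.64 in the control siRNA array and at 1.81 in the G0s2 siRNA array, with processed intensities of 2798 and 628. The difference was -1.83, that is 3.57-fold lower. The same day held levels of 4.14 in vehicle, 2.95 in ATRA, 3.16 in DEN and 0.28 in ATRA+DEN. Both siRNA levels thus lay inside the range of the 4 arrays without siRNA, and the ATRA+DEN array, which received no siRNA, had less G0s2 than the G0s2 siRNA array. At day 7, in other arrays, G0s2 was 3.23 with control siRNA and 2.05 with G0s2 siRNA, a difference of -1.18. G0s2 was the 50th largest fold difference downward of the 19098 genes.

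**Figure D1:**
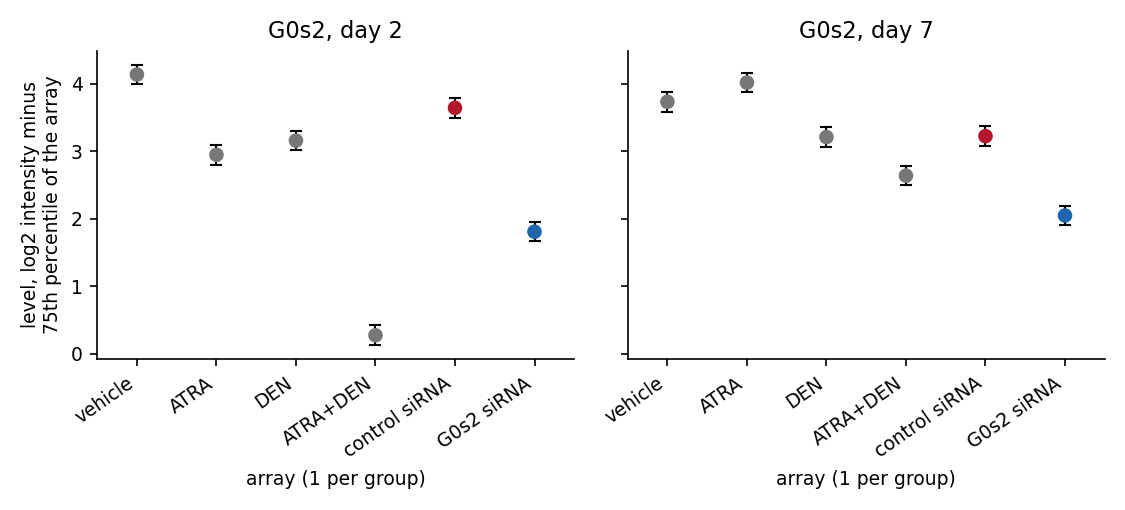
Level of G0s2 (log2 processed intensity minus the array's 75th percentile) in each of the 12 arrays, day 2 on the left and day 7 on the right, 1 point per array. Bars are the scanner software's error-model SD. The G0s2 siRNA array sits at 1.81 at day 2, below control siRNA (3.64) and above ATRA+DEN (0.28). The labels of 3 day-7 arrays without siRNA disagree on the treatment, and these are placed by title.

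G0s2, Pnpla3 and Cidec were the genes of lipid droplet lipolysis that were 2-fold apart, all lower. Of 25 genes listed, 23 were above background on both arrays, and Plin1 and Cidea were above it on neither. None was 2-fold higher and 3 were 2-fold lower, G0s2 among them, against 1.36% of all genes 2-fold higher and 1.23% 2-fold lower. The median difference of the 23 genes was -0.12, beside 0.08 over all genes kept.

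The lipase that G0s2 inhibits, Pnpla2, stood at 3.21 in control siRNA and 3.23 in G0s2 siRNA, a difference of 0.02. Its co-activator Abhd5 differed by 0.12, and its 3 probes ranged from -0.23 to 0.12. Hilpda, the other known protein inhibitor of the lipase, differed by -0.36. Hormone-sensitive lipase (Lipe) differed by 0.44 at a low level, monoacylglycerol lipase (Mgll) by 0.06 and lysosomal acid lipase (Lipa) by -0.14. The lipases further down the pathway therefore lay within 0.44 of equality, apart from Pnpla3.

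Pnpla3, a droplet-bound acyl hydrolase under SREBP-1c control, was 0.49 in vehicle, 1.19 in ATRA, 0.26 in DEN, -3.76 in ATRA+DEN, 3.16 in control siRNA and 1.93 in G0s2 siRNA. Its difference was -1.24, and both siRNA arrays were above all 4 others. Its second probe gave -1.60. Cidec, which fuses lipid droplets, was -1.30 in control siRNA and -2.32 in G0s2 siRNA, a difference of -1.02, and the control array alone was above the other arrays (-2.90 to -1.82). Its second probe, not above background on both arrays, gave 1.99.

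Among the droplet coat proteins, Plin2 differed by -0.39, Plin4 by -0.65, Plin3 by 0.23 and Plin5 by 0.22. The droplet-forming proteins Fitm1, Fitm2 and Bscl2 differed by -0.37, -0.31 and -0.03, and Cideb by 0.18. The carboxylesterases Ces1d, Ces1f and Ces1g differed by -0.21, -0.12 and 0.07, Aadac by 0.26, and the acyltransferases Dgat1 and Dgat2, which make triglyceride, by -0.24 and -0.02. Members of the Ces1 family are close paralogs, so their probes may share signal.

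Over all genes, 260 were at least 2-fold higher and 234 at least 2-fold lower in the G0s2 siRNA array, 2.59% together. The SD of the differences over genes was 0.42, and 11758 genes were higher at all and 7340 lower (61.6% higher). Predicted genes and clones made up 99 of the 260 and 61 of the 234. At 4-fold the counts were 32 and 38, and at 16-fold 2 and 6. The 6 pairs among the 4 other day-2 arrays, which share arrays with each other, had from 2.77% to 4.30% of genes at least 2-fold apart, a larger share than in the siRNA pair. By the SD of the differences, ATRA+DEN against ATRA (0.4174) and the siRNA pair (0.4195) were alike. Each siRNA array against each of those 4 arrays gave from 5.68% to 8.38%. The control and G0s2 siRNA arrays were thus nearer to each other than either was to the other slide.

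The split of higher and lower genes depended on the scaling. Higher genes were 52.6% of those 2-fold apart, 37.9% with scaling to the array median, 44.8% with quantile normalization and 41.8% with another background correction (normexp). The 7 spike-in RNAs above background read 0.49 to 0.59 higher in the G0s2 siRNA array on the 75th percentile scale, with a median of 0.54. Scaled to them, all differences fell by 0.54 on the log2 scale, leaving 76 genes 2-fold higher and 1313 lower, or 5.47% higher. Directions below are relative to the 75th percentile.

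**Figure D2:**
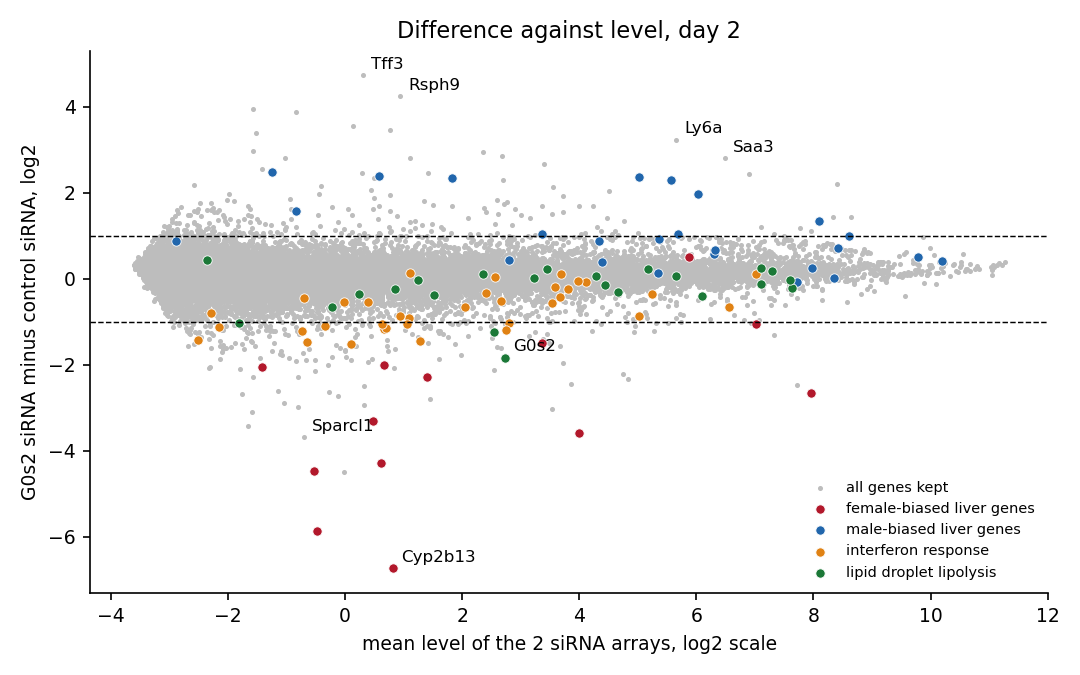
Difference (G0s2 siRNA minus control siRNA, log2) against the mean level of the 2 arrays for the genes kept, 1 point per gene, with 4 gene lists coloured. Dashed lines mark 2-fold. Cyp2b13 of the female-biased genes lies at -6.74, while the lipolysis genes other than G0s2, Pnpla3 and Cidec stay inside the lines.

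The largest differences upward included 3 genes of the Ly6 family, several male-biased genes given further on, and genes outside the lists. Tff3, a trefoil peptide of mucous epithelia, was 0.98 in vehicle, 2.55 in ATRA, -0.01 in DEN, 0.68 in ATRA+DEN, -2.07 in control siRNA and 2.67 in G0s2 siRNA. Its difference was 4.73, with the control siRNA array far below all others and the G0s2 siRNA array just above ATRA. Rsph9, a radial spoke protein of cilia, stood at -1.19 and 3.07, a difference of 4.25, with the other arrays at -1.74 to 1.94. Acot11, an acyl-CoA thioesterase, differed by 3.96 (-3.55 against 0.40), with the control array below and the G0s2 siRNA array above the other 4.

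Ttbk1, a tau kinase, differed by 3.89 on a probe that its second probe, not above background, did not share (-1.62). Abhd1 differed by 3.55, from -1.65 in control siRNA to 1.90 in G0s2 siRNA, where the other 4 arrays were at -1.51 to -1.19. Abhd1 was therefore high in the G0s2 siRNA array alone. Ptgds, a prostaglandin D synthase, differed by 2.96, A2ml1, a protease inhibitor, by 2.81 and Pbld2 by 2.67. A second A2ml1 probe, not above background on both arrays, gave -1.52.

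Ly6a, the surface antigen Sca-1, was 1.31 in vehicle, 1.85 in ATRA, 0.26 in DEN, 3.49 in ATRA+DEN, 4.04 in control siRNA and 7.28 in G0s2 siRNA. Its difference was 3.24, and both siRNA arrays were above all others. Ly6c1, an antigen of monocytes and endothelium, differed by 2.43 (5.68 against 8.11) and Ly6f by 2.80. Their family is made of close paralogs, so the share of each is uncertain.

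Downward, the list was led by genes that the liver of female mice expresses more than that of males. Mouse liver is sexually dimorphic because growth hormone is secreted in pulses in males and more steadily in females, and the pattern is read through STAT5 and Bcl6. Of 27 female-biased genes listed, 14 were above background on both arrays, 9 on the control siRNA array only, 1 on neither, and 3 were not found by name. Of the 14, 13 were at least 2-fold lower in the G0s2 siRNA array and 0 higher, with a median of -2.99. Among all genes 1.23% were 2-fold lower.

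Cyp2b13, a female-predominant cytochrome P450, was -2.39 in vehicle, -2.66 in ATRA, -1.24 in DEN, -2.19 in ATRA+DEN, 4.19 in control siRNA and -2.55 in G0s2 siRNA. Its difference was -6.74, and the control siRNA array alone was above the other arrays.

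Slc22a26, an organic anion transporter, differed by -5.86, and Cyp2b9 by -4.47 (1.70 against -2.77). Hao2, a hydroxyacid oxidase, differed by -4.28, but ATRA (0.55) and DEN (1.28) were also above the G0s2 siRNA array (-1.54). Cyp2b10, the P450 induced through the xenobiotic receptor CAR, was 3.02 to 3.67 in the 4 other arrays, 5.78 in control siRNA and 2.20 in G0s2 siRNA, a difference of -3.58. Acot3, a peroxisomal thioesterase, differed by -3.31 and Cyp2a4, a testosterone hydroxylase, by -2.67.

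The control siRNA array was above the range of the 4 other arrays for 12 of the 14 genes, and the G0s2 siRNA array for 2. Over all genes, the control siRNA array was above that range for 25.0% and below it for 29.2%. Of all 19098 genes, the G0s2 siRNA array was above that range for 5885 and below it for 3549. For 3 of the 14, the G0s2 siRNA array was below the range. Only Cyp17a1, a steroid hydroxylase and lyase, differed upward, by 0.50. Cyp2a, Cyp2b and Cyp3a genes have near-identical neighbours, so a probe may read more than 1 of them.

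Among genes above background on the control siRNA array only, A1bg, a plasma glycoprotein, was 4.66 in control siRNA, at least 294-fold lower. A1bg, Sult2a1 and Sult2a2 belong to the female-biased list, and Sult2a6, Slc22a27 and Ifi27l2b do not. The sulfotransferases Sult2a6, Sult2a2 and Sult2a1 were at least 48.5-fold, 42.2-fold and 15.9-fold lower, and the transporter Slc22a27 at least 20.3-fold. The bound sets the bright level against the lowest signal that passed as above background on the dim array, or the dim probe's own where higher. Ifi27l2b, at least 66.1-fold lower, was above background on all 4 other arrays (-1.37 to 0.91).

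Male-biased genes were higher in the G0s2 siRNA array. Of 30 listed, 25 were above background on both arrays, 1 on neither, and 4 were not found by name. Of the 25, 11 were at least 2-fold higher in the G0s2 siRNA array and 0 lower, with a median of 0.89. The count was 7 to 8 with every other scaling or background correction tried. All genes gave 1.36% for 2-fold higher, and from 76 to 208 of 19098 genes with those other settings.

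The control siRNA array was below the range of the 4 other arrays for 16 of the 25 genes and above it for 1. The G0s2 siRNA array was above it for 11 and below it for 3. Of all 19098 genes, the control siRNA array was below that range for 5569 and above it for 4766. For the G0s2 siRNA array these counts were 3549 below and 5885 above. Elovl3, a fatty acid elongase, was 4.25 in vehicle, 2.42 in ATRA, 4.06 in DEN, 4.51 in ATRA+DEN, -0.61 in control siRNA and 1.78 in G0s2 siRNA. Its difference was 2.39, and both siRNA arrays were below all others. Susd4 was 0.65 in control siRNA and 3.00 in G0s2 siRNA, with the other 4 at 2.51 to 3.14. Cspg5 differed by 2.49 and Cyp4a12a and Cyp4a12b, near-identical fatty acid hydroxylases, by 2.36 and 2.30.

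Cyp7b1, the oxysterol hydroxylase, was 5.04 in control siRNA and 7.01 in G0s2 siRNA, a difference of 1.97, with the other 4 arrays at 5.95 to 6.83. Mup21, a major urinary protein, differed by 1.34 and Scara5, a scavenger receptor, by 1.57. The control siRNA array alone was outside the range for 9 of the 14 female-biased genes, and the G0s2 siRNA array alone for 1. For the 25 male-biased genes the counts were 8 and 5. Over all genes the shares were 20.7% and 16.0%, so the male-biased counts lean the same way as all genes. These are counts of positions, without a test.

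**Figure D3:**
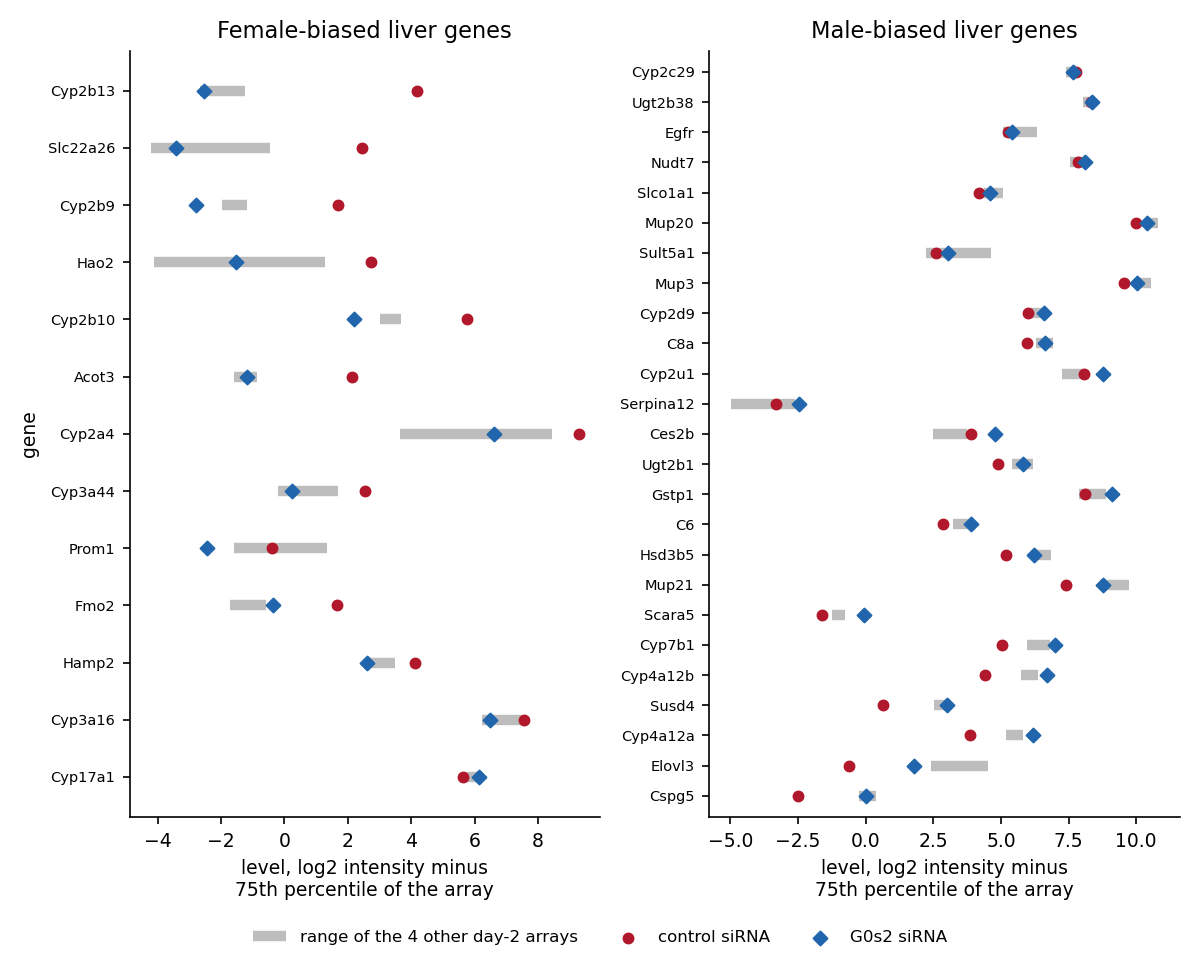
Levels (log2 processed intensity minus the array's 75th percentile) of female-biased and of the 25 male-biased genes kept. Grey bars span the 4 other day-2 arrays, circles are control siRNA and diamonds G0s2 siRNA. The control circle lies right of the bar for most female-biased genes and left of it for 16 male-biased genes.

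The sex label was checked on the same arrays. Xist, the X-inactivation transcript of females, was not well above background on either siRNA array. The Y-linked genes Ddx3y (1.87 and 1.76) and Eif2s3y (2.05 and 1.98) were alike on both. The array of the control siRNA therefore carried male sex markers beside its high levels of female-biased genes.

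The growth hormone axis itself had 16 of 18 genes above background on both arrays. Of these, 2 were at least 2-fold lower and 0 higher, against 1.23% and 1.36% of all genes, with a median of -0.01. Socs2, a feedback inhibitor of the growth hormone receptor, was -0.07 in vehicle, 3.18 in ATRA, 1.46 in DEN, 3.11 in ATRA+DEN, 2.55 in control siRNA and 0.67 in G0s2 siRNA. It differed by -1.87, and both siRNA levels lay inside the range of the other arrays. Prlr, the prolactin receptor, differed by -1.27 (4.08 against 2.81). Bcl6, a repressor of female-biased genes, differed by 0.97, with control siRNA (1.19) below the other 4 arrays (1.89 to 3.54). Igfbp2 and Igfbp1, binding proteins of insulin-like growth factors, differed by 0.98 and 0.89, and the receptor Ghr and Stat5b by 0.53 and 0.15.

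The STAT5-type motif TTCNNNGAA was searched in the 250 bases upstream of the start, taken from RefSeq (GRCm38.p6). It was present in 2 of 12 female-biased genes kept that have a window, Slc22a26 and Hamp2. It was present in 1 of 16 male-biased genes kept with a window and in 0 of the 5 that were 2-fold higher. Among the 10756 kept genes with a window, 7.48% hold it.

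Interferon-induced genes were lower in the G0s2 siRNA array. These genes encode antiviral proteins and are switched on by interferon through transcription factors that bind the interferon-stimulated response element. Of 38 listed, 35 were above background on both arrays, 2 on the control siRNA array only and 1 on neither. Of the 35, 13 were at least 2-fold lower, 0 higher, and 31 were lower at all, with a median of -0.66. Over all genes 1.23% were 2-fold lower and 7340 of 19098 lower at all. The 2-fold lower count was 4 with normexp background correction, where 121 of all 19098 genes were 2-fold lower. With spike-in scaling it was 23, where 1313 of all genes were.

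Oasl2, an oligoadenylate synthetase-like protein, was -2.49 in vehicle, -2.27 in ATRA, -1.53 in DEN, -1.24 in ATRA+DEN, 0.86 in control siRNA and -0.67 in G0s2 siRNA. It differed by -1.53, with both siRNA arrays above all others and control the higher. Irf7, the factor that amplifies interferon production, was -2.56, -1.38, -1.35 and -1.30 in vehicle, ATRA, DEN and ATRA+DEN, 2.01 in control siRNA and 0.55 in G0s2 siRNA. Its difference was -1.46, with the same order.

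Ifi44 and Mx1, an antiviral GTPase, differed by -1.47 and -1.43. Mx1 was above background on 1 of the 4 other arrays. Rsad2 (viperin), Rtp4, Usp18, which removes ISG15 from proteins, and Xaf1 differed by -1.23, -1.20, -1.16 and -1.15. A second Xaf1 probe, not above background on both arrays, gave 5.18, the opposite direction. On the probes used, these 4 genes were above all other arrays in control siRNA and inside their range in G0s2 siRNA.

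Of the 35 genes, 32 were above the range of the 4 other arrays in control siRNA and 21 in G0s2 siRNA, the latter all among the former. Both siRNA arrays were above the range for 17.2% of all genes. The median of the 35 against the mean of those 4 arrays was 1.35 in control siRNA, 0.72 in G0s2 siRNA and 0.39 in DEN. Not every member differed. Bst2 (tetherin) was 6.97 and 7.07, and Mx2, Ifih1, Psmb8 and Psmb9 lay within 0.13 of equality.

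The response element was searched as a pair of GAAA letters with any 2 bases between them, on both strands, in the same upstream windows. It was present in 12 of the 26 kept interferon genes with a window and in 3.31% of the 10756 kept genes with one. Among the members at least 2-fold lower, 4 of 9 with a window hold it, and among those under 2-fold 8 of 17. The windows of these 4 genes are shown because they carry the element beside a difference of 2-fold or more. Capitals mark its matches, overlapping ones joined, each window reads 5′ to 3′ on the gene's strand and ends at the base before the start.
Ifit1, chr19:34640639-34640888, plus strand: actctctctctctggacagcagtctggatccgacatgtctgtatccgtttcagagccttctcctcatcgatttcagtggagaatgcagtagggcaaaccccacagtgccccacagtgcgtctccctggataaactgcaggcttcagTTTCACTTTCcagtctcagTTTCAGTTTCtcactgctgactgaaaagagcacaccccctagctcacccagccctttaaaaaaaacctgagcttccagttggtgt
Oas1a, chr5:120907526-120907775, minus strand: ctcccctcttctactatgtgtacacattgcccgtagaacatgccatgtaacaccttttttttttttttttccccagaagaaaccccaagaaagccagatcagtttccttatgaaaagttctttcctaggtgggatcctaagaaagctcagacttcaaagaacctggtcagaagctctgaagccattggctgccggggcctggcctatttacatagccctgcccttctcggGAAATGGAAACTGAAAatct
Rsad2, chr12:26456453-26456702, minus strand: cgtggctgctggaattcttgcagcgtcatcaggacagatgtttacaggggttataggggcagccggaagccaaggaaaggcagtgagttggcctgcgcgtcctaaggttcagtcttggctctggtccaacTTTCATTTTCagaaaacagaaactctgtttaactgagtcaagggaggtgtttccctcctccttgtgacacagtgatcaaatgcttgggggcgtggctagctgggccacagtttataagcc
Cxcl10, chr5:92348890-92349139, minus strand: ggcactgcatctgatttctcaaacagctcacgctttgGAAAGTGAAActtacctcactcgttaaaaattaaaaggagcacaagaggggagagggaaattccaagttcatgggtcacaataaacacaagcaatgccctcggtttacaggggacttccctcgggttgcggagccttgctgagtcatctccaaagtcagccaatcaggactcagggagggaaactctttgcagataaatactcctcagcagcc
Ifit1, an RNA-binding antiviral protein, and Oas1a, an oligoadenylate synthetase, differed by -1.10 and -1.04. Cxcl10, a chemokine, differed by -1.04 and, with Rsad2 above, completes the set. The element was as frequent among interferon genes that were under 2-fold apart, and a match is a description of letters only.

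Kupffer cell and macrophage genes were also higher in both siRNA arrays than in the others, and mostly higher in the control. In bulk liver, fewer cells of a type and less RNA per cell cannot be told apart. Of 23 markers, 22 were above background on both arrays and 1 on the control siRNA array only. Of the 22, 4 were at least 2-fold lower in G0s2 siRNA and 1 higher, with a median of -0.29, against 1.23% and 1.36% of all genes. The 1 higher was under 2-fold in every other scaling or background correction tried, and the 4 lower were 2 with normexp and 8 with spike-in scaling. Of all 19098 genes, 121 were 2-fold lower with normexp and 1313 with spike-in scaling. Both siRNA arrays were above the range of the 4 others for 16 of the 22 markers. The summed level of the 22 was 376 in control siRNA and 276 in G0s2 siRNA against 143 to 161 in the others. These sums are linear, in multiples of the 75th percentile.

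Marco, the scavenger receptor of resident macrophages, was 0.92 in vehicle, 1.90 in ATRA, 0.97 in DEN, 2.40 in ATRA+DEN, 5.86 in control siRNA and 3.64 in G0s2 siRNA. It differed by -2.21. Cd14, the lipopolysaccharide co-receptor, differed by -1.16, Adgre1 (F4/80) by -1.15 and Lyz2 by -1.02. The Kupffer-restricted genes Clec4f (5.13 and 4.93), Vsig4 (4.59 and 4.29) and Cd5l (6.29 and 6.09) differed by 0.30 or less. C6, a complement protein that is also on the male-biased list, was the member that was 2-fold higher, by 1.03.

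**Figure D4:**
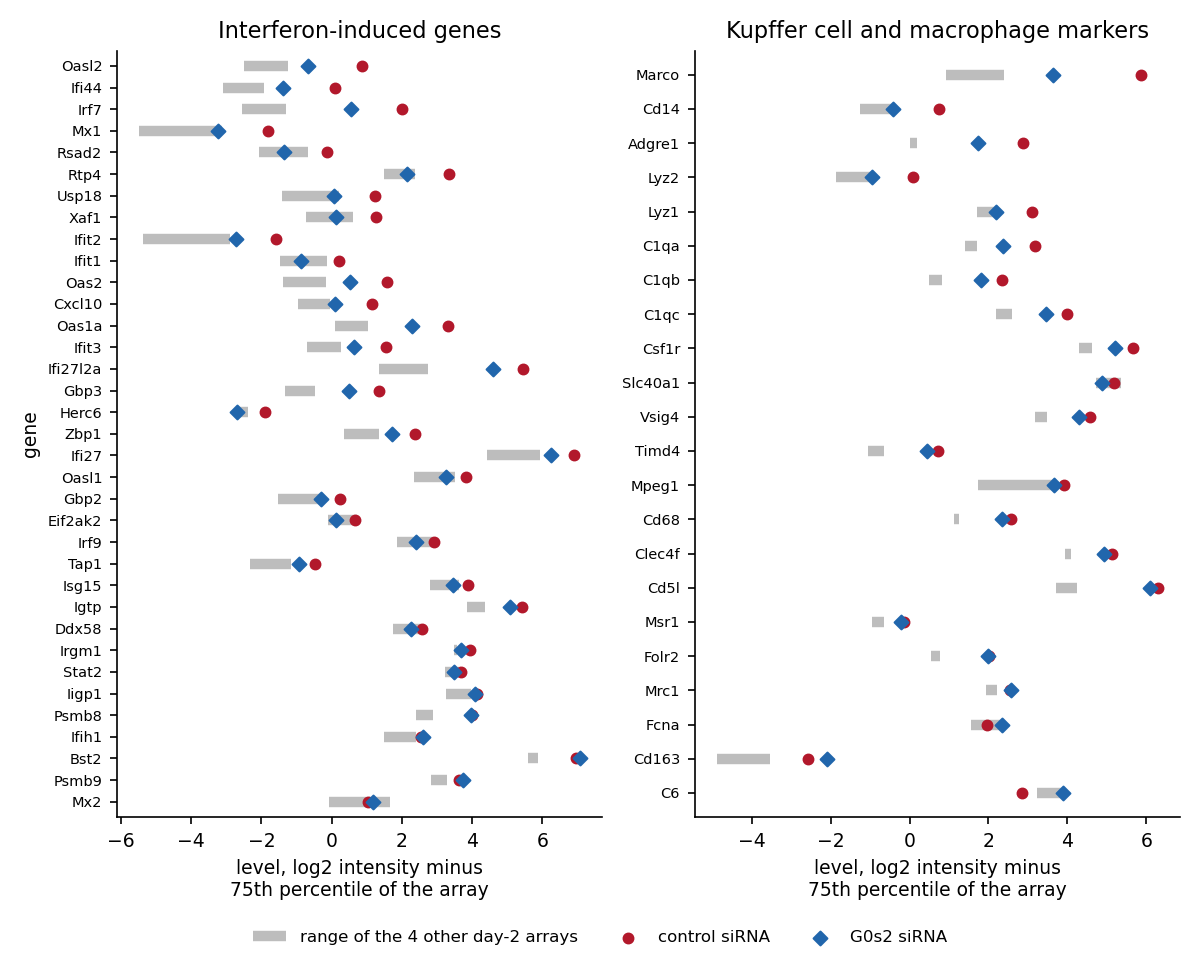
Levels (log2 processed intensity minus the array's 75th percentile) of the 35 interferon-induced and 22 Kupffer cell and macrophage genes kept. Grey bars span the 4 other day-2 arrays, circles are control siRNA and diamonds G0s2 siRNA. Both symbols lie right of the bar for 21 interferon-induced and 16 macrophage genes.

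Of the other immune markers, all 7 MHC class II genes kept were above the range of the 4 arrays in both, with a summed level of 52.5 in control siRNA and 73.1 in G0s2 siRNA against 11.9 to 17.0. Their median difference was 0.12, and Cd74, the invariant chain, differed by 0.75. Monocyte, neutrophil and dendritic cell markers had 2 of 12 genes 2-fold higher in G0s2 siRNA, Ly6a and Ly6c1, and 0 lower. Of all genes, 1.36% were 2-fold higher and 1.23% lower. Of the 12, 6 were higher at all and 6 lower, with a median of -0.05. Their summed level was 320 in control siRNA, below the other 4 arrays (348 to 457), and 683 in G0s2 siRNA. The low sum in control siRNA does not describe most of these markers. Counted by gene, 8 of the 12 were above the range of the 4 others in control siRNA and 2 below it. In G0s2 siRNA 7 were above and 2 below. Of all 19098 genes, 4766 were above and 5569 below in control siRNA, and 5885 and 3549 in G0s2 siRNA. Ly6c1 (5.68 against 8.11) and Ly6a (4.04 against 7.28) weigh heavily on the linear sum in G0s2 siRNA. T, B and NK cell markers had a median of 0.03 with 0 of 13 at 2-fold. Of 17 cytokine and chemokine genes kept, 8 were higher and 9 lower, with a median of -0.01. At 2-fold 0 were higher and 3 lower, Cxcl13 (-1.92), Il1b (-1.89) and Ccl2 (-1.57), and 2 were lower with normexp. The interferon-gamma target Cxcl9 differed by 0.71. Whether the share of immune cells or of their RNA took part in the differences of interferon genes and of single cytokines was not tested.

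Hepatocyte, sinusoidal endothelium and stellate cell markers had at most 1 gene at 2-fold. The hepatocyte list had 0 of 26 genes at 2-fold and a median of 0.26, which is -0.28 with spike-in scaling. Its summed level was 17221 in control siRNA, below the other 4 arrays (17710 to 23793), and 20410 in G0s2 siRNA. Sinusoidal endothelium had 1 of 20 at 2-fold, Sparcl1, and stellate cells 0 of 17. Cholangiocyte and progenitor markers had 1 of 7 genes 2-fold lower, Prom1 by -2.06, and 0 higher, with a median of -0.01. Of all genes, 1.36% were 2-fold higher and 1.23% lower. Red cell genes had 3 of 12 2-fold higher, and 0 with normexp, with a median of 0.40 that is -0.14 with spike-in scaling, and their summed level was 139 and 231 against 92.0 to 551 in the other arrays.

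Acute phase proteins split. The serum amyloids were higher in G0s2 siRNA, Saa3, which macrophages and hepatocytes make, by 2.81 (5.08 against 7.89, with the other 4 at 0.74 to 1.55). Saa1 and Saa2, which are near-identical, differed by 1.44 and 1.45, and Lcn2, an iron-siderophore binder, by 1.41. The iron hormone hepcidin (Hamp) differed by -1.30 (7.98 against 6.67) and its paralog Hamp2 by -1.49. Of 28 genes, 4 were 2-fold higher and 2 lower, against 1.36% and 1.23% of all genes. Their median was 0.09, which is negative with quantile normalization, spike-in scaling and the deposited series table.

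In lipid metabolism beyond the droplet, 5 of 31 fatty acid oxidation genes and PPAR alpha targets were 2-fold lower and 1 higher, with a median of -0.07, against 1.23% and 1.36% of all genes. Cyp4a10 and Cyp4a31, omega-hydroxylases with similar sequences, differed by -1.77 and -1.52, and the G0s2 siRNA array (1.09 and 1.11) was below all 4 others. Their probes disagreed, with 0.41 on 1 of 3 for Cyp4a10 and 1.34 on 1 of 2 for Cyp4a31. Pdk4, a kinase that inhibits pyruvate dehydrogenase, differed by -1.12 and Acot4 by -1.09. The one that was higher is Cyp4a12a, given above.

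Of 25 cholesterol genes 19 were lower, 1 of them 2-fold, with a median of -0.32. Of all 19098 genes, 7340 were lower and 1.23% were 2-fold lower. With spike-in scaling 8 of the 25 cholesterol genes were 2-fold lower, as were 1313 of all 19098 genes. Sqle, squalene epoxidase, was 3.47, 3.14, 2.98 and -0.41 in vehicle, ATRA, DEN and ATRA+DEN, 4.70 in control siRNA and 2.74 in G0s2 siRNA, a difference of -1.97. Lipogenesis had 1 of 25 at least 2-fold lower, Elovl6, with -1.02. Mfsd2a, a transporter of lysophosphatidylcholine, differed by -1.60, and lipoprotein lipase (Lpl) by 1.42.

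Of 17 immediate early genes 15 were lower and 1 was 2-fold lower, Atf3 with -1.68, and Jun differed by -0.84. Over all genes 7340 of 19098 were lower and 1.23% were 2-fold lower. The median of the 17 was -0.39, and with normexp it was -0.12 with 0 genes 2-fold lower. With spike-in scaling 6 of the 17 were 2-fold lower, as were 1313 of all 19098 genes. Of 34 cell cycle genes 28 were higher, where 61.6% of all genes were, with a median of 0.33 that is -0.21 with spike-in scaling. Ccnb1, a mitotic cyclin, differed by 1.35, whereas Ccnd1, the G1 cyclin, differed by -1.11.

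Both siRNA arrays were nearer to DEN than to vehicle for Phlda3 and Cdkn1a, targets of p53, which responds to DNA damage. Phlda3 was -1.46 in vehicle, -1.66 in ATRA, 3.52 in DEN, 3.03 in ATRA+DEN, 3.26 in control siRNA and 2.21 in G0s2 siRNA. Cdkn1a (p21) was 0.97, 1.96, 3.84 and 3.22 in those 4 arrays, and 3.80 and 3.18 in the siRNA arrays. Of 28 p53 targets 1 was 2-fold lower, Phlda3 by -1.05, against 1.23% of all genes, and the median was -0.10. Against the mean of the 4 other arrays, the median of the 28 was 0.55 in control siRNA and 0.30 in G0s2 siRNA. It was -0.42 in vehicle, -0.35 in ATRA, 0.53 in DEN and 0.37 in ATRA+DEN. For 15 of the 28, both siRNA arrays lay inside the range of those 4. Whether the siRNA mice drank DEN is not stated, and slide and siRNA injection cannot be told apart.

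Single members of other lists also stood out. Slco1a4, a bile acid and drug uptake carrier, differed by -1.67, the sterol transporter Abcg8 by 1.08, and the deiodinase Dio1 by 1.51. Dio1 was 2.78 in control siRNA, below the 4 other arrays (3.35 to 4.90). Lgr5, a Wnt target of cells around the central vein, differed by 1.48, and was under 2-fold with normexp. It was -3.42 in control siRNA, near the lowest level above background on that array (-3.89). A second Lgr5 probe, not above background on both arrays, gave 0.39. The circadian clock list had 0 of 21 and the RNA interference machinery 0 of 13 at 2-fold.

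Sparcl1, a matricellular protein of vessels, was low in the G0s2 siRNA array alone. It was 1.90 in vehicle, 2.03 in ATRA, 0.44 in DEN, 1.53 in ATRA+DEN, 1.14 in control siRNA and -2.55 in G0s2 siRNA, a difference of -3.69. Bmper, a regulator of bone morphogenetic proteins, differed by -2.61 through a high control array (0.16). Csprs differed by -2.93 on 1 of its 3 probes, and the other probes gave -0.46 and -0.72. Trim6 and Xlr3b differed by -2.68 and -2.64, and 1 of the 2 dim Trim6 probes gave 0.13.

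Bounds upward were led by Camk2b, a calmodulin-dependent kinase, at least 131-fold higher. It was 3.15 in G0s2 siRNA and not well above background in control siRNA, but also 2.44 to 2.72 in vehicle, ATRA and ATRA+DEN. Ctse, Nox4 and Clec2h were at least 17.0-fold, 15.3-fold and 14.9-fold higher, and Nox4, an NADPH oxidase, was above background on all 4 other arrays. Omd and Ly6a2 were at least 7.10-fold and 6.35-fold higher. In all, 587 genes were above background on the G0s2 siRNA array only, 113 of them by at least 2-fold, and 984 on the control siRNA array only, 72 of them by at least 2-fold.

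Across all genes, the position of each siRNA array against the 4 others was counted. The control siRNA array alone was outside their range for 3948 genes (20.7%) and the G0s2 siRNA array alone for 3047 (16.0%). Both were outside on the same side for 5747 (30.1%). Of the 494 genes at least 2-fold apart, the control array alone was outside for 154 and the G0s2 siRNA array alone for 124, while 97 had the arrays on opposite sides and 44 had both inside. The control array was 2-fold beyond the range with the G0s2 siRNA array not for 87 of them, and the reverse held for 45. Over all 19098 genes these counts were 268 and 169, which lean the same way.

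The same siRNAs at day 7, in arrays that share none with day 2, gave 322 of 16934 genes 2-fold higher (1.9%) and 221 lower (1.31%). Of the 260 genes higher at day 2, 198 were above background on both day-7 arrays, and 38 of these were 2-fold higher there and 9 lower. Of the 234 lower at day 2, 181 were above background, and 30 were 2-fold lower there and 21 higher. Among the 16580 genes above background on all 4 siRNA arrays, 285 were 2-fold higher and 203 lower at day 7. The 38 shared genes are 19.2% of the 198 and 13.3% of the 285. The 30 are 16.6% of the 181 and 14.8% of the 203. Across the 16580 genes above background on all 4 siRNA arrays, the differences of the 2 days had a Pearson r of 0.17, as a description over genes, which are not replicates.

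Several genes were 2-fold apart in the same direction on both days, G0s2 among them, with sizes that were near for some and far apart for others. Sparcl1 differed by -3.69 and -3.90, Cyp2b10 by -3.58 and -2.93, Cyp2b9 by -4.47 and -2.91 and Marco by -2.21 and -2.04. Ly6a differed by 3.24 and 6.55, Ly6c1 by 2.43 and 5.56, Acot11 by 3.96 and 2.79 and Rsph9 by 4.25 and 1.47. Mfsd2a differed by -1.60 and -5.62, Dio1 by 1.51 and 4.40, Cyp4a10 by -1.77 and -1.74 and Slco1a4 by -1.67 and -1.68.

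Other genes 2-fold apart at day 2 were under 2-fold at day 7. Tff3 differed by 4.73 and -0.33, Abhd1 by 3.55 and 0.04, and Saa3 by 2.81 and 0.69. The interferon list, at -0.66 on day 2, had a median of 0.19 over 34 genes at day 7, with 4 higher and 0 lower at 2-fold. Of the female-biased genes 8 were above background on both day-7 arrays, with a median of -0.19. Of these, 3 were at least 2-fold lower, against 1.31% of all genes, and 1 was at least 2-fold higher, against 1.9%. The male-biased list had 20 of 24 genes higher at day 7, 3 of them 2-fold, 1 gene 2-fold lower and a median of 0.34. Cyp2b13 was not above background on both day-7 arrays.

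**Figure D5:**
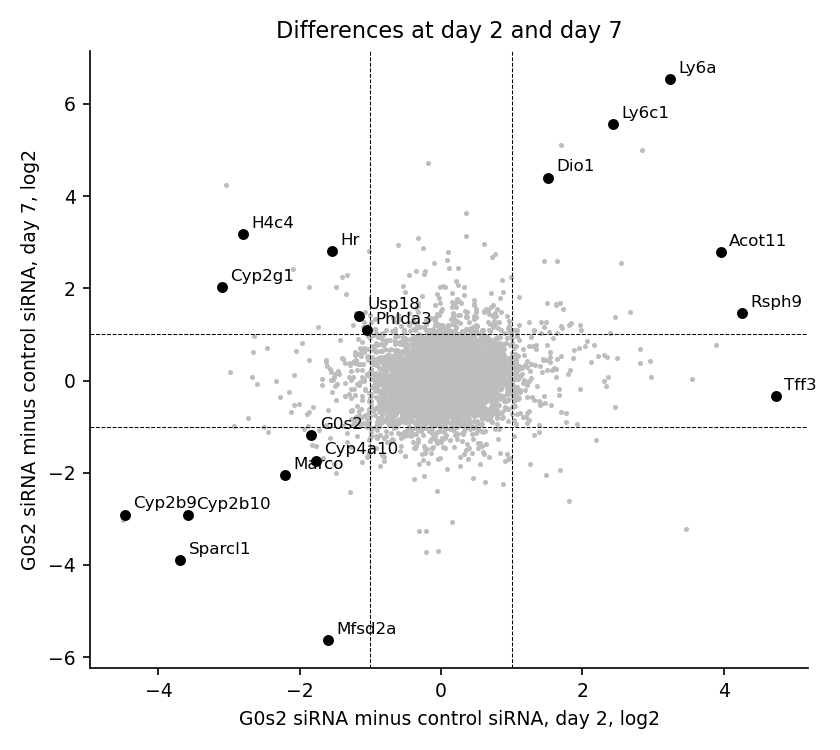
Difference (G0s2 siRNA minus control siRNA, log2) at day 2 on the horizontal and day 7 on the vertical axis for 16580 genes above background on the 4 arrays, 1 point per gene, with named genes in black. Dashed lines mark 2-fold. Sparcl1 lies near -3.69 and -3.90, whereas Tff3, 4.73 at day 2, is at -0.33 on day 7.

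The agreement of probes bears on single genes. Of the 2-fold higher genes with more than 1 probe kept, 32 of 45 had all probes higher and 15 of 45 all 2-fold higher. For the lower genes the counts were 37 of 43 and 26 of 43.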

How the data were processed

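The deposited array files hold processed spot intensities of the 12 arrays from Agilent Feature Extraction, with version 10.7.1.1 per the file headers and 9.5.1.1 per the submitters' processing notes. Labelling was 1-colour (Cy3), per the labels. The authors' normalized intensities in the deposited series table were used as an alternative only. Control spots and outlier-flagged spots were left out, spots of a probe were averaged on log2, and the 75th percentile of the array was subtracted. Probes well above background on both siRNA arrays were kept. Of several probes kept for a gene, the one brightest on average over the 6 day-2 arrays was used. Probes were named through RefSeq accession (27235), symbol (3581) or synonym (565), and 24300 kept the name in the file. Probe positions are on mm9, and upstream windows on GRCm38.p6.

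With 1 array per group no test was made. Errors are the SD of repeat spots and the software's error model, and neither measures the spread between mice. Median processed intensities were 18.2 (control siRNA) and 15.5 (G0s2 siRNA). Named genes were G0s2, the 15 largest rises and falls with a reference symbol, the 6 largest bounds each way, up to 8 members of each of 37 lists with the largest difference, and all lipolysis genes. Genes such as Bst2 were added after their values were seen. Predicted genes and clones were counted only, and a gene that is not reported here enters counts and medians but no plot. The members and lists were chosen with earlier results of these data known. The selection and counting were tested on simulated data with the noise of repeat spots only, on probes already kept. Spread between mice and the background filter were not part of that test. Alternatives were median, quantile and spike-in scaling, normexp (limma 3.58.1, R 4.3.3, offset 50), other filters, folds and probe choices.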

Additional observations from a re-analysis of the deposited data

Results flagged for a closer look

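For 5 genes named above, the difference was at least 2-fold at day 2 and at least 2-fold in the opposite direction at day 7. Neither day has replicates, so the difference between the days was not tested. Cyp2g1, a P450 of olfactory mucosa, differed by -3.10 at day 2 (-0.04 with control siRNA, -3.14 with G0s2 siRNA) and by 2.03 at day 7. H4c4, a histone H4 gene with near-identical copies, differed by -2.80 and 3.18. Hr, a corepressor of the thyroid hormone receptor, differed by -1.54 and 2.80. Phlda3, a p53 target that inhibits Akt, differed by -1.05 and 1.09, and Usp18 of the interferon response by -1.16 and 1.41. In all, 30 genes met these limits, 8 of them predicted genes or clones.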

How the results depend on the processing

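The G0s2 difference of -1.83 lay between -1.92 and -1.83 with median scaling, quantile normalization, normexp, the deposited series table and the mean over probes, and was -2.37 with spike-in scaling, which was chosen after seeing the data. The counts of genes 2-fold higher (260) and genes 2-fold lower (234) were 87 and 121 with normexp, 76 and 1313 with spike-in scaling, 2326 and 1207 with no filter on dim probes, 584 and 554 when 1 of the 2 arrays had to be above background, 1307 and 858 at 1.5-fold, and 32 and 38 at 4-fold. With median scaling, 182 of the 260 and 234 of the 234 were still called, and with normexp 87 and 113. The median of the female-biased genes was -3.16 with quantile normalization, -2.69 with normexp and -3.53 with spike-in scaling. With spike-in scaling the medians of the male-biased, interferon and lipolysis genes were 0.35, -1.19 and -0.66. The median over all genes, 0.08, was -0.46 with spike-in scaling and otherwise between -0.00 and 0.18. Of 86 named genes at 2-fold, 82 stayed there with median scaling, 84 with quantile normalization, 68 with normexp, 85 in the deposited series table and 73 with spike-in scaling, and none of them changed sign. The cause was not tested. No paired analysis was possible because each group has 1 array, and for the same reason no replicate could be left out. Dim probes limit what can be said, since 587 genes were above background on the G0s2 siRNA array only and 984 on the control siRNA array only.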
